A study of Homo sapiens with 32 samples.

Results

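Palbociclib and doxorubicin were compared directly in A549, a human lung adenocarcinoma line, 7 days after the start of treatment. The comparison used 8 of the 32 libraries of the series, chosen by their titles: 4 of A549 cells given palbociclib (5 uM) and 4 of A549 cells given doxorubicin (100 nM). In each group the libraries were titled 1, 2, 2-2 and 3, and the labels number 2 and 2-2 both as replicate 2, so their counts were added, which left 3 replicates a group. Both drugs were withdrawn after 72 h and the medium was changed every 3 days, without drug from then on. Untreated A549 cells (4 libraries, numbered in the same way) served as the reference level, and the same pair of drugs in the melanoma line SK-MEL-147 (palbociclib 1 uM, doxorubicin 100 nM, 4 replicates each) served as the test of whether a difference belonged to A549. A549 cells given the mTOR inhibitor INK128 (200 nM) entered the fit that estimated the spread between replicates. Untreated SK-MEL-147 cells and those given INK128 (100 nM), 4 replicates each, entered the fit over both lines, and all groups entered a check for transcripts of the other line. INK128 was renewed at each change of medium. The labels do not say whether the replicates of a group were separate cultures, so p-values measure the spread between these samples, which may be technical.

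Both drugs are used to make tumour cells senescent, by different routes. Palbociclib inhibits the kinases CDK4 and CDK6, which phosphorylate the retinoblastoma protein RB, and so keeps E2F transcription factors from starting the S-phase programme without breaking DNA. Doxorubicin intercalates into DNA and traps topoisomerase II on it, and the breaks activate the kinases ATM and ATR and, in A549, which has normal p53, the transcription factor p53. Senescent cells of either kind stop dividing, enlarge their lysosomes, lose lamin B1 and often switch on secreted inflammatory factors and interferon-stimulated genes. The comparison asks what separates the inducers from each other once both have stopped the cells.

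Counts assigned to genes ranged from 28150560 to 33331334 per A549 library. The cells expressed the epithelial keratins KRT7, KRT8 and KRT18 at 1740 CPM (read counts scaled to a common library total) or more in every replicate of both drugs. Other epithelial markers were mixed, with CDH1 at 87.9 to 164 CPM, EPCAM at 2.78 to 6.68 CPM and CLDN7 at 0.221 to 0.548 CPM. ESRP1, ESRP2 and GRHL2 were too low to be tested. Alveolar markers were mixed too. NKX2-1, the lung lineage factor, and the surfactant gene SFTPC were too low to be tested, while ABCA3 stood at 37.9 to 72.6 CPM and CAV1 at 143 to 428 CPM. Markers of other cell types were low with both drugs. The 14 leukocyte markers summed to between 11.3 and 24.1 CPM with palbociclib and between 12.6 and 37 CPM with doxorubicin, and the defining markers PTPRC and CD3E were too low to be tested. The 11 fibroblast markers summed to 42 to 45 CPM and 40.4 to 56.8 CPM, and the 8 endothelial markers to 2.42 to 2.93 CPM and 2.84 to 4.07 CPM, in the same order. The 11 melanocyte markers summed to 31.9 to 34.7 CPM and 31.7 to 41.2 CPM.

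Replicate 1 of both drugs stood apart from replicates 2 and 3. Transcripts of the mitochondrial genome took 17.3% of its counts with palbociclib and 18.3% with doxorubicin, against 8.48% to 9.71% in the other replicates of these groups. It also carried transcripts that are typical of the melanoma line. SOX10, a melanocyte lineage factor at 167 to 646.2 CPM in the 16 SK-MEL-147 libraries, stood at 5.53 CPM in palbociclib library 1 and 6.54 CPM in doxorubicin library 1, and at no more than 0.0657 CPM in the other 6 libraries of the groups. Of 76 genes with at least 10 CPM in every SK-MEL-147 library and under 0.1 CPM in untreated A549 libraries 2, 2-2 and 3, 74 were higher in both of these libraries than in the other 6. Their summed level was 2.37% of the SK-MEL-147 mean in palbociclib library 1, 2.51% in doxorubicin library 1 and 0.191% in untreated library 1. The part of this in the results was not tested, and the counts of the main lists are therefore also given without replicate 1. A further doubt concerned replicates 2 and 3. Library 2-2 lay much closer to library 3 than any other pair of libraries in its group (chi-square per degree of freedom 4.92 to 10.7 against 48.7 to 290), though farther than sampling noise, so replicates 2 and 3 may not be independent.

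The difference between the drugs was small beside the difference of either drug from untreated cells. Palbociclib against untreated gave 4348 higher genes (22.2%) and 4123 lower genes (21.1%) of 19550, and doxorubicin gave 4381 (22.4%) and 4082 (20.9%). Palbociclib against doxorubicin in the same fit, edgeR's quasi-likelihood test over the 4 A549 groups without a block, gave 0 genes (0%) at a Benjamini-Hochberg adjusted p under 0.05, with 869 genes (4.45%) at an unadjusted p under 0.05, and DESeq2 called 12 genes higher and 19 lower. Libraries with the same number deviated together from their group means. The correlation of these deviations between the drugs was 0.815, 0.697 and 0.586 for replicates 1, 2 and 3, so the numbers were taken to mark pairs. Replicates 2 and 3 also correlated with each other across the drugs, at 0.37 and 0.446, while replicate 1 correlated negatively with both (-0.708 to -0.606). With the replicate number as a block and only these 2 groups, a fit chosen after the data were seen and called the paired fit here, 706 genes (3.84% of 18401) were higher with palbociclib and 633 (3.44%) were lower. Every call named below rests on the paired fit. The same block over all 4 A549 groups, and the 2 groups without a block, gave 0 genes in either direction. Leaving out pair 1 gave 1132 higher and 971 lower, leaving out pair 2 gave 215 and 141, and leaving out pair 3 gave 384 and 350.

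All 706 higher genes had the same sign in the 3 pairs, as did 620 of the 633 lower ones. The paired fit favours genes whose pairs agree, so this agreement is no separate evidence. The 3 replicates of the groups did not overlap for 240 of the higher and 222 of the lower genes. Non-overlap held for 760 genes in the higher direction (3.89%) and 762 in the lower (3.9%) among all 19550. The median size of a called difference was 0.41 on the log2 scale for higher and 0.49 for lower genes, and 64 and 84 genes differed by more than 1. Against untreated cells, 282 of the 706 higher genes were also higher with palbociclib and 178 with doxorubicin, and 208 and 316 of the 633 lower genes were higher, in the same order. Of the higher genes 505 were protein-coding and 167 pseudogenes, and of the lower ones 564 and 23. How reads with several matches were counted is not given in the sources used here, so pseudogenes and their parent genes cannot be told apart with certainty. In the paired fit the median of all genes was 0.00.

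**Figure D1:**
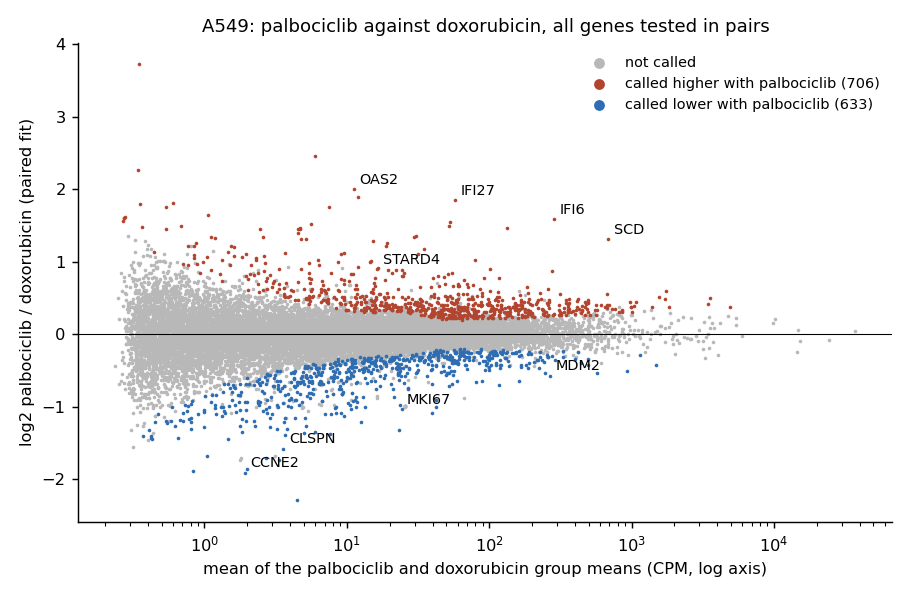
Each point is a gene tested in pairs in A549, with the mean of the 2 drug groups on the horizontal axis (CPM, log scale) and the log2 ratio of palbociclib to doxorubicin from the paired fit on the vertical axis. The 706 genes called higher with palbociclib are red, the 633 called lower are blue and the others are grey, and interferon genes such as OAS2, IFI27 and IFI6 lie among the most raised.

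Interferon-stimulated genes, which encode antiviral effectors and sensors of foreign nucleic acid, were prominent among the largest differences. Of the 12 most raised protein-coding genes with a mean of at least 10 CPM in the higher group, XAF1, OAS2, IFITM1, IFI27, IFI44L, IFI6, MX1, IFIT3, IFIT1 and IFIT2 belong to this group, and SCD was also among the 12. XAF1, IFI44L and IFITM1 reached that mean through palbociclib replicate 1 alone, at 26.3, 31 and 54.3 CPM, with 2.3 to 2.85 CPM in palbociclib replicates 2 and 3. OAS2, whose values are given below, also reached it through palbociclib replicate 1 alone, with under 10 CPM in palbociclib replicates 2 and 3. Of 59 interferon-stimulated genes tested, 35 were higher with palbociclib and 0 lower, with log2 differences from 0.44 (IFI16) to 2.46 (XAF1). The groups did not overlap in 8 of the 59, among them 5 of the 35 called. The median over the list was 0.70, against 0.00 over all genes. Neither drug left these genes at the untreated level: against untreated cells 55 of 59 were higher with palbociclib (median 3.82) and 49 with doxorubicin (median 2.88), and the comparisons share their untreated samples.

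Values of each group are given from here on in the order of replicates 1, 2 and 3. IFIT2, which binds viral RNA, stood at 72.3, 30.4 and 25.4 CPM with palbociclib and at 24.1, 11.6 and 12.7 CPM with doxorubicin, against 1.26, 1.52 and 2.01 CPM in untreated cells. All palbociclib values lay above all doxorubicin values, and the log2 difference was 1.34 ± 0.10 (SE, 3 pairs, paired edgeR fit, adjusted p = 0.000833). IFI27, a mitochondrial protein and one of the most widely used interferon markers, stood at 259.9, 12.5 and 9.31 CPM with palbociclib and at 54.4, 4.03 and 3.97 CPM with doxorubicin. Here the groups overlapped, because replicate 1 was far above the others with either drug, and within every pair palbociclib was higher (log2 1.85 ± 0.15, paired edgeR fit, adjusted p = 0.000833). OAS2, an antiviral synthetase that activates RNase L, overlapped in the same way, at 39.6, 8.46 and 6.92 CPM against 8.06, 2.15 and 2.4 CPM. MX1, a GTPase that blocks viral replication, stood at 173.2, 37.6 and 30.1 CPM against 50.7, 10.4 and 15.9 CPM (log2 1.55 ± 0.14, paired edgeR fit, adjusted p = 0.000965).

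IFI27, IFIH1, IFIT2 and OAS2 shared the smallest adjusted p of the called interferon genes. The promoter of IFI27 is shown, the first by alphabet that held the motif searched for the interferon response element, GAAANNGAA on either strand. The sequence is from RefSeq (GRCh38.p14, chr14:94110486-94110785, plus strand), from 250 bases before to 50 after the start, with the 2 matches in capitals.
IFI27: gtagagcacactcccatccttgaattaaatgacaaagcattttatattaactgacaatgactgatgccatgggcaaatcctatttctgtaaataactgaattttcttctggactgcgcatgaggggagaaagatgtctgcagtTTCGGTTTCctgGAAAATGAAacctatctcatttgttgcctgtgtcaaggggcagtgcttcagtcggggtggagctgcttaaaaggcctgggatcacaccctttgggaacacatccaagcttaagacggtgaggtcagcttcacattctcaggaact
Of 45 interferon-stimulated genes with a promoter in the RefSeq table, 30 held the motif (66.7%), against 8.11% of all 35116 promoters. Among the 27 called in the paired fit it was held by 19.

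The interferon difference was larger in pair 1 than in the others. The list medians of the log2 ratio were 1.25, 0.56 and 0.27 in pairs 1, 2 and 3. The summed level of the 60 genes was 7823, 2696 and 2643 CPM with palbociclib and 3518, 2102 and 2344 CPM with doxorubicin, against 895.7 to 985.7 CPM in untreated cells. In SK-MEL-147, whose transcripts replicate 1 carried at the percentages above, the same sum was 3389 to 12446 CPM with palbociclib and 3295 to 10743 CPM with doxorubicin. Without pair 1, 32 members were higher and 1 lower, without pair 2, 26 and 0, and without pair 3, 48 and 0. Genes of MHC class I presentation, which interferon also induces, went the same way: 7 of 21 were higher and 0 lower (median 0.27). HLA-E, a ligand of natural killer cell receptors, stood at 252.4, 200.4 and 199.9 CPM against 159.5, 157.9 and 161.5 CPM without overlap (log2 0.44 ± 0.08, paired edgeR fit, adjusted p = 0.0117), and HLA-B, HLA-F, HLA-G, TAPBP and TAP2 were further called members. The light chain B2M was not called, at 1585, 654.2 and 606.1 CPM against 992.7, 519.7 and 559.2 CPM (paired edgeR fit, adjusted p = 0.0568). Without pairs 1, 2 and 3 the counts of called MHC genes were 7, 2 and 10. Reads of the near-identical HLA genes may have been split between them.

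Cholesterol genes differed by nearly the same amount in each pair. Cells make cholesterol through a long enzyme chain or take it up from lipoproteins, and the transcription factor SREBF2 (SREBP-2) drives both when sterols are scarce. Of 26 genes of cholesterol synthesis and uptake, 16 were higher with palbociclib and 1, TM7SF2, was lower. The list median was 0.42 in pair 1, 0.42 in pair 2 and 0.36 in pair 3. Against untreated cells the list lay near its former level with palbociclib (3 higher, 4 lower, median -0.13) and below it with doxorubicin (1 higher, 12 lower, median -0.75). Leaving out pair 1, 2 or 3 left 16, 13 and 14 higher members.

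STARD4, a sterol carrier protein, stood at 25.5, 22.7 and 15.8 CPM with palbociclib, 13.8, 12.9 and 7.76 CPM with doxorubicin and 13, 16.1 and 12.9 CPM in untreated cells. All palbociclib values lay above all doxorubicin values (log2 0.90 ± 0.08, paired edgeR fit, adjusted p = 0.000881). For the early enzyme HMGCS1 the levels were 70.7, 155.8 and 97.5 CPM against 51.5, 95.9 and 66.5 CPM. The groups overlapped there, although palbociclib was higher in each pair (log2 0.57 ± 0.06, paired edgeR fit, adjusted p = 0.00192). INSIG1, the sterol-regulated brake of the pathway, differed by log2 1.26. TM7SF2, a sterol reductase, was the exception at 25.6, 25.2 and 24.6 CPM against 31.8, 30.2 and 33.1 CPM (log2 -0.33 ± 0.07, paired edgeR fit, adjusted p = 0.0279).

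SREBF2 was the called cholesterol gene whose promoter held the searched sterol motif, ATCACNCCA on either strand, with its match in capitals (RefSeq, GRCh38.p14, chr22:41832855-41833154, plus strand).
SREBF2: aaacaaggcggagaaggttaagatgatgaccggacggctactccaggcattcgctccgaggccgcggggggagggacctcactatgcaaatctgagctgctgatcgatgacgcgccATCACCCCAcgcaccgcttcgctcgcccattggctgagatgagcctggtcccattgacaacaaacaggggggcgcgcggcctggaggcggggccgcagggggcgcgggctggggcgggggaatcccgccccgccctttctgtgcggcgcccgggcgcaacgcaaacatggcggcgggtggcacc
Among the 19 members with a promoter in the table it was the 1 with a match (5.26%), against 0.57% of all promoters. SREBF2 itself stood at 56, 98.4 and 101.3 CPM with palbociclib and at 41.7, 74.3 and 64.6 CPM with doxorubicin (log2 0.49 ± 0.06, paired edgeR fit, adjusted p = 0.00401).

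Fatty acid synthesis showed a narrower difference, with 7 of 21 genes higher and 1 lower. SCD, the stearoyl-CoA desaturase, stood at 639.5, 1450 and 843.9 CPM with palbociclib and at 306, 581.6 and 290.5 CPM with doxorubicin. No values overlapped, and the log2 difference was 1.31 ± 0.09 (paired edgeR fit, adjusted p = 0.000833). FASN, the fatty acid synthase, was higher by log2 0.41 ± 0.07 and the acyl-CoA synthetase ACSL3 by 0.40 ± 0.06. SCD5, a second desaturase, was lower by contrast, at 43, 52.2 and 57.1 CPM against 68.6, 60.7 and 66.9 CPM. The median of the list was 0.09, and 7, 5 and 2 members were higher without pairs 1, 2 and 3.

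**Figure D2:**
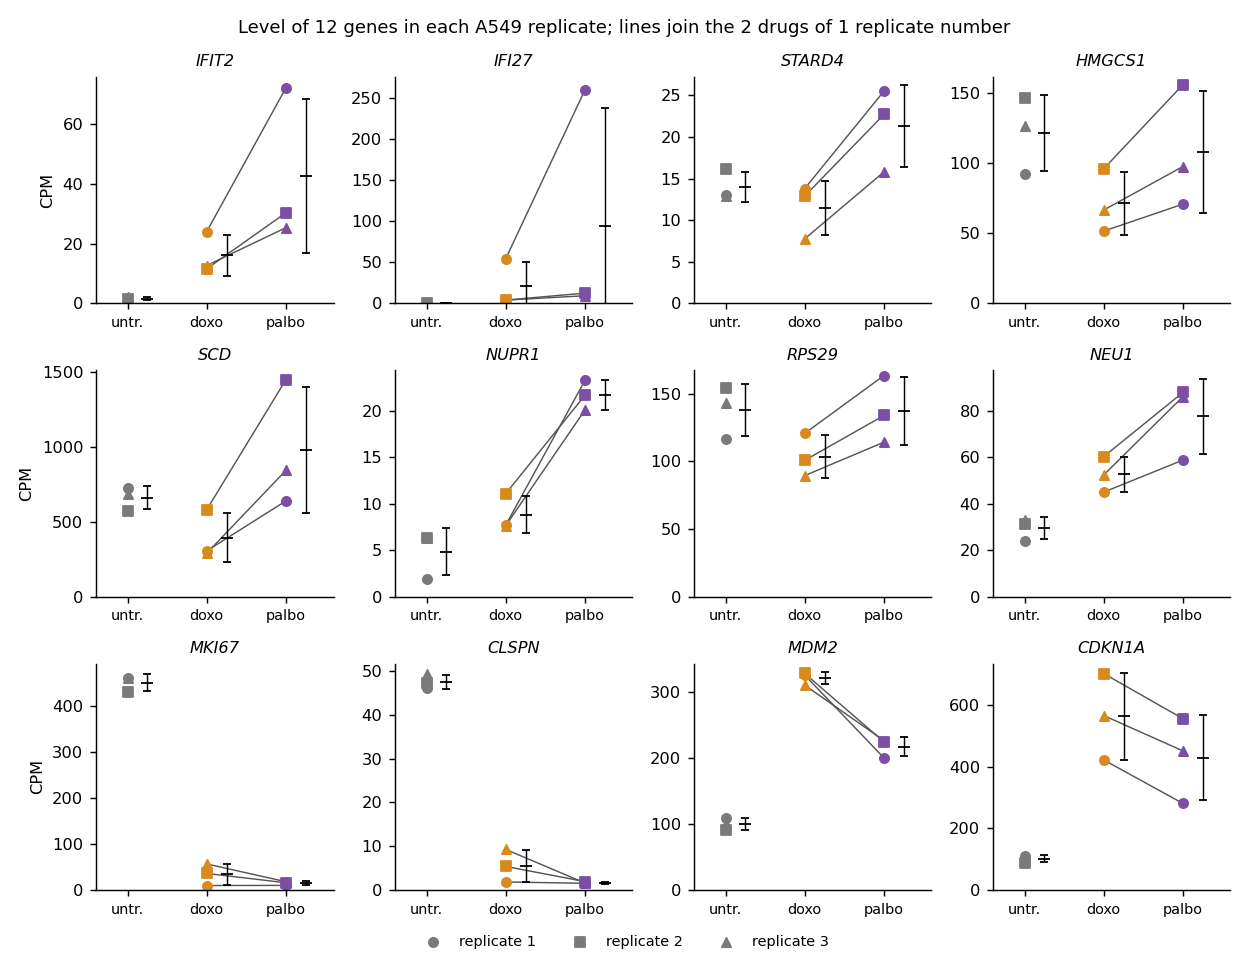
Level in CPM of 12 genes in each replicate of untreated, doxorubicin-treated and palbociclib-treated A549, with a marker shape for each replicate number, a grey line joining the 2 drugs of a number, and a black bar for the mean ± SD of 3 replicates, cut at 0 for IFI27. STARD4, NUPR1 and MDM2 separate the drugs without overlap, IFI27 differs within pairs but replicate 1 is far above the others, and the MKI67 difference is absent in replicate 1.

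Targets of ATF4, the transcription factor of the integrated stress response that raises amino acid synthesis and transport, were higher with palbociclib for 13 of 39 members, and 0 were lower (median 0.25). In 12 of the 39 the groups did not overlap. NUPR1, a small chromatin-associated stress protein, stood at 23.3, 21.7 and 20.1 CPM against 7.71, 11.1 and 7.66 CPM (log2 1.29 ± 0.12, paired edgeR fit, adjusted p = 0.000881). The mitochondrial folate enzyme ALDH1L2 stood at 17, 14.5 and 16 CPM against 8.64, 8.45 and 7.59 CPM (log2 0.93 ± 0.09, paired edgeR fit, adjusted p = 0.00112). STC2, a secreted glycoprotein, was higher by log2 0.68 ± 0.07, and among the other called members were ATF4 (0.47), its inhibitor TRIB3 (0.77), the enzyme CBS (0.75) and the glutamine transporter SLC1A5 (0.37). ATF3, a stress factor of the same family, was not called, at 6.92, 7.94 and 5.69 CPM against 6.07, 13.6 and 9.46 CPM (paired edgeR fit, adjusted p = 0.117). Against untreated cells 9 members were higher and 12 lower with palbociclib (median -0.08), and 3 were higher and 15 lower with doxorubicin (median -0.29). Without pairs 1, 2 and 3, 11, 12 and 10 members were higher, and 1 was lower without pair 1. Of 34 members with a promoter, 8 held the motif TGATGNAA (23.5%, against 3.62% of all promoters), and it was held by 0 of the 10 that were called. The unfolded protein response, which shares targets with ATF4, had 1 of 23 members called, HERPUD1 (log2 0.31), near the 3.84% called higher over all genes.

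Ribosomal protein genes gave a small difference in many members: 55 of 78 were higher with palbociclib and 0 lower, at log2 differences from 0.25 to 0.48. The list median was 0.31, and it was 0.21, 0.37 and 0.35 in the 3 pairs. RPL36, a protein of the large subunit, stood at 229.2, 161.8 and 133.9 CPM against 159.6, 123.6 and 106 CPM (log2 0.42 ± 0.06, paired edgeR fit, adjusted p = 0.0059). RPS29 of the small subunit stood at 163.3, 133.8 and 114.1 CPM against 120.6, 100.7 and 89.4 CPM (log2 0.40 ± 0.05, paired edgeR fit, adjusted p = 0.0045). In both, the replicates of the groups overlapped while each pair went the same way. Against untreated cells the medians were 0.08 for palbociclib and -0.23 for doxorubicin. A list added after the values were seen, of translation factors and host genes of small nucleolar RNAs whose mRNAs share the 5' start of ribosomal protein mRNAs, had 10 of 30 members higher and 0 lower (median 0.24), and 19, 6 and 8 higher without pairs 1, 2 and 3. GAS5, a host of small nucleolar RNAs, stood at 182.3, 109.5 and 106.9 CPM against 129.9, 78.2 and 70.4 CPM. Ribosome biogenesis factors, by contrast in the count, had 1 of 41 called, no more than the 3.84% called higher over all genes. It was NOB1 (log2 0.26), which processes small subunit RNA. The calls of ribosomal proteins depended on which pair was left out, with 72 higher without pair 1, 4 without pair 2 and 6 without pair 3. Nuclear pseudogenes, many of them copies of such genes, took 7.78% ± 0.909 of counts with palbociclib and 7.19% ± 1.11 with doxorubicin (SD, n = 3, exact permutation test, 2-sided, p = 0.5). Palbociclib was higher in all 3 pairs (exact sign-flip test, 2-sided, p = 0.25, the smallest that 3 pairs allow).

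Lysosome genes differed in the same direction. Of 52 genes of lysosomal enzymes and membrane proteins tested in pairs, 13 were higher with palbociclib and 0 lower (median 0.18). The groups did not overlap in 11 of the 53 tested over the 4 groups. NEU1, the lysosomal sialidase, stood at 58.8, 87.9 and 86.1 CPM against 45, 60.3 and 52.4 CPM (log2 0.55 ± 0.07, paired edgeR fit, adjusted p = 0.00334). NPC1, which exports cholesterol from the lysosome, stood at 101.1, 106.8 and 97.1 CPM against 79.2, 84.4 and 66.9 CPM (log2 0.41 ± 0.06, paired edgeR fit, adjusted p = 0.00683). LIPA, the acid lipase, and CTSL, a protease, were further called members at log2 0.35 and 0.55. GLB1, whose product gives the senescence-associated β-galactosidase stain, was not called: it stood at 159.4, 175.8 and 188.3 CPM with palbociclib, 151.9, 145.2 and 165.2 CPM with doxorubicin and 67.5, 64 and 75.8 CPM in untreated cells (paired edgeR fit, adjusted p = 0.122). Both drugs raised the list over untreated cells, with 36 and 35 of the 53 members higher (medians 0.83 and 0.71). The list median was 0.03 in pair 1 and 0.24 and 0.25 in pairs 2 and 3, and 27 members were higher without pair 1, 2 without pair 2 and 4 without pair 3.

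The E-box CACGTG, the core of the motif bound by TFEB, the lysosomal master regulator, was found in 10 of 35 lysosome promoters (28.6%), against 7.26% of all promoters. NEU1 was the called member with the smallest adjusted p that held it (RefSeq, GRCh38.p14, chr6:31862772-31863071, minus strand, match in capitals).
NEU1: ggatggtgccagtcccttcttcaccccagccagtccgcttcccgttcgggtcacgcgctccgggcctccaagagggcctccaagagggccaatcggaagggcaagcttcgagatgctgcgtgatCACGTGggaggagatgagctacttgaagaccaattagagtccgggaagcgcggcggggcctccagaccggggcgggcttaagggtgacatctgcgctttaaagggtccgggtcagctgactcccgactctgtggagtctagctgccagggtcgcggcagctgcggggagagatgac
Autophagy genes had 7 of 41 higher and 0 lower, and 7, 4 and 5 higher without pairs 1, 2 and 3. They included RRAGD, a Rag GTPase that brings mTORC1 to the lysosome, at 13.2, 13.4 and 14.5 CPM against 8.21, 7.88 and 6.92 CPM, a difference without overlap (log2 0.83 ± 0.10, paired edgeR fit, adjusted p = 0.0023). SQSTM1, the cargo receptor p62, stood at 1540, 1880 and 2073 CPM against 1032, 1460 and 1368 CPM (log2 0.51 ± 0.08, paired edgeR fit, adjusted p = 0.00932), and the early autophagosome protein WIPI1 at 42.1, 44.5 and 43.7 CPM against 33.5, 32.5 and 31.3 CPM. Of the proton pump of the lysosome, the V-ATPase, 2 of 19 genes were called, ATP6AP1 and ATP6V0B, both higher.

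**Figure D3:**
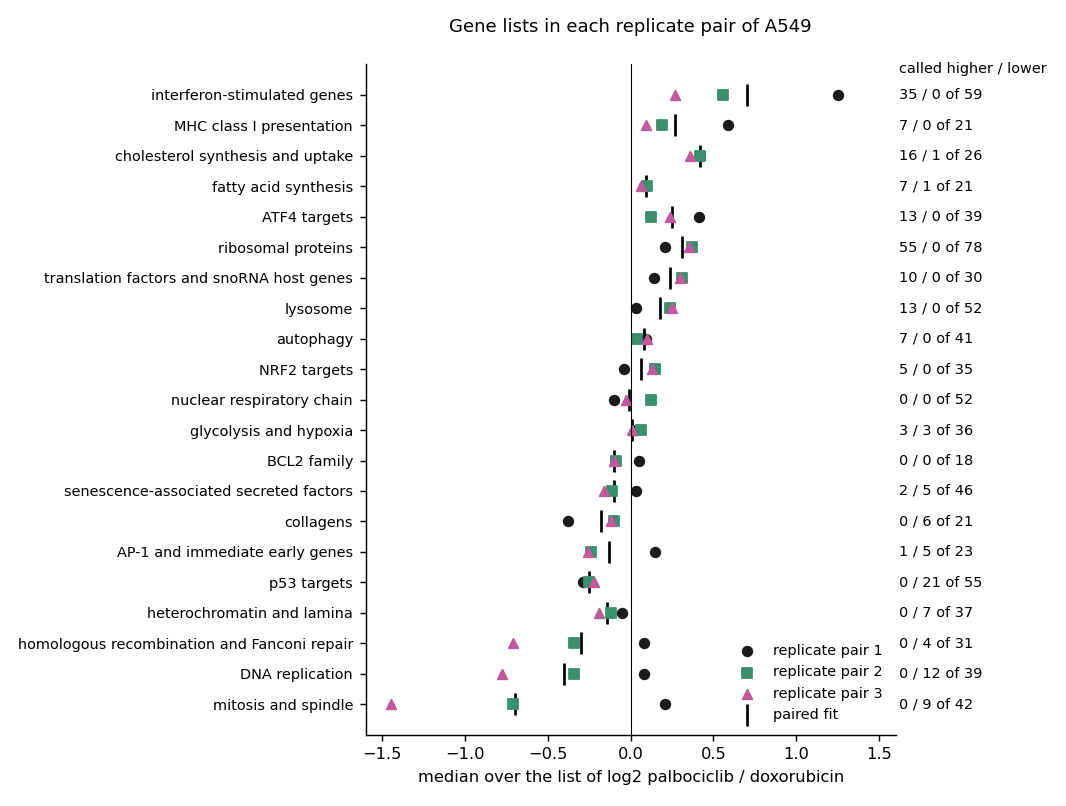
For 21 gene lists, the median log2 ratio of palbociclib to doxorubicin in A549 in each replicate pair (marker shapes) and in the paired fit (vertical bar), with the number of members called higher and lower on the right. Cholesterol genes and p53 targets give nearly the same median in each pair, interferon genes range from 0.27 to 1.25, and mitosis genes range from 0.21 in pair 1 to -1.45 in pair 3.

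Genes of DNA replication and mitosis were the reverse: their list medians were lower with palbociclib in pairs 2 and 3, though not in pair 1. This came on top of a fall that both drugs shared. Against untreated cells all 39 replication genes and all 42 mitosis genes were lower with either drug. The median of mitosis genes was -4.19 with palbociclib and -3.31 with doxorubicin, and that of replication genes -2.84 and -2.50. Directly compared, 12 of 39 replication genes were lower (median -0.40) and 9 of 42 mitosis genes (median -0.70), and 0 of either list were higher. Of those called, 9 replication genes and 5 mitosis genes were lower in all 3 pairs.

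MKI67, the proliferation antigen Ki-67, stood at 9.91, 15.6 and 17.9 CPM with palbociclib and at 9.65, 35.9 and 56.5 CPM with doxorubicin, against 430 to 461.7 CPM in untreated cells. Doxorubicin replicate 1 lay just below the palbociclib values and replicates 2 and 3 lay above them (log2 -1.03 ± 0.24, paired edgeR fit, adjusted p = 0.0338). KIF4A, a chromosome-bound kinesin, gave 2.02, 4.11 and 3.23 CPM against 2.65, 9.09 and 14.9 CPM, where doxorubicin replicate 1 lay within the palbociclib values and the others above them (log2 -1.35 ± 0.25, paired edgeR fit, adjusted p = 0.0138). TOP2A, the topoisomerase that doxorubicin targets, was not called, at 30.5, 49.7 and 45.4 CPM against 26.3, 96.6 and 148.8 CPM (paired edgeR fit, adjusted p = 0.0785). Among replication genes, CLSPN, an adaptor of the checkpoint kinase CHK1, stood at 1.51, 1.91 and 1.58 CPM against 1.83, 5.37 and 9.26 CPM (log2 -1.58 ± 0.30, paired edgeR fit, adjusted p = 0.0159). Thymidylate synthase TYMS was the nucleotide gene with the smallest adjusted p, at 20.6, 39 and 28.6 CPM against 37.3, 62.1 and 65 CPM (log2 -0.90 ± 0.09, paired edgeR fit, adjusted p = 0.00126).

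Across these lists doxorubicin replicate 1 stood apart from doxorubicin replicates 2 and 3. The summed level of the mitosis genes was 387.4, 446.3 and 394.8 CPM with palbociclib and 333.6, 678.9 and 937.3 CPM with doxorubicin, and that of the replication genes 674.6, 680.8 and 626.4 CPM against 690.3, 877.8 and 1082 CPM. The list medians of mitosis genes were 0.21, -0.71 and -1.45 in pairs 1, 2 and 3, and those of replication genes 0.08, -0.34 and -0.78. The palbociclib values were thus close together, and the spread lay in the doxorubicin replicates. Without pair 1, 36 mitosis and 29 replication genes were lower, without pair 2, 0 of each (paired edgeR fit with 2 pairs), and without pair 3, 2 and 4. DESeq2 on the 3 pairs called 3 and 6. In bulk RNA, fewer cycling cells and less transcript per cell cannot be told apart.

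2 promoters are shown for these lists, each from the called member with the smallest adjusted p that held the list's motif, in capitals. KIF4A carried the cell cycle homology region, searched as TTTGAA or TTTAAA on either strand (RefSeq, GRCh38.p14, chrX:70289854-70290153, plus strand), and GINS2, a subunit of the replicative helicase, an E2F motif, searched as TTTGGCGC, TTTCCCGC, TTTGCCGC or TTTCGCGC (chr16:85688905-85689204, minus strand).
KIF4A: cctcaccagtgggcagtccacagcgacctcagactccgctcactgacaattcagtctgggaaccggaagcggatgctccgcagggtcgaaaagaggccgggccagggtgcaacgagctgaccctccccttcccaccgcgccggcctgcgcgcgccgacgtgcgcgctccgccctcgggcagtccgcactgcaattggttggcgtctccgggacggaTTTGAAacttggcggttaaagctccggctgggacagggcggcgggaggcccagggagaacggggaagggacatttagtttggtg
GINS2: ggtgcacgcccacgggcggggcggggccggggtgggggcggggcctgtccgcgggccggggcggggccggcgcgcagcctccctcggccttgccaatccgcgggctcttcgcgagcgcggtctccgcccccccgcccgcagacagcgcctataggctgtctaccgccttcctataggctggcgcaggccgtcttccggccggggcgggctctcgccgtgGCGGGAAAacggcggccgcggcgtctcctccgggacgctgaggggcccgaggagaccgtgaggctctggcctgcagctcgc
The homology region was found in 31 of 37 mitosis promoters (83.8%), against 24% of all promoters, and in 6 of the 8 that were called. An E2F motif was found in 17 of 34 replication promoters (50%), against 3.31% of all promoters, and in 7 of the 11 called. GINS2 stood at 1.82, 2.66 and 2.13 CPM against 2.3, 5.76 and 7.48 CPM (log2 -1.16 ± 0.22, paired edgeR fit, adjusted p = 0.0147).

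Further genes of the cycle followed. Of 19 cell cycle transcription factors 6 were lower, among them E2F8, a repressor of the family (log2 -1.26), and MYBL2, an activator of mitotic genes (-1.16). Without pairs 1, 2 and 3 the counts were 8, 0 and 1, and DESeq2 called 3. CCNE2, the E2F target cyclin E2, stood at 0.857, 0.866 and 0.614 CPM against 1.01, 3.45 and 4.8 CPM (log2 -1.91 ± 0.35, paired edgeR fit, adjusted p = 0.0134). CCND1, the cyclin D1 that binds CDK4 and CDK6, was not called, at 294.3, 689.2 and 679.2 CPM against 268.8, 659 and 649.3 CPM, nor was CDK6, at 49.3, 52.2 and 62.5 CPM against 48.2, 69 and 64.2 CPM (paired edgeR fit, adjusted p = 0.489 and 0.343). In homologous recombination and the Fanconi pathway 4 of 31 genes were lower, BARD1, RAD54B, BRIP1 and FANCA, and the counts were 13, 0 and 1 without pairs 1, 2 and 3 and 2 with DESeq2. Of 37 genes of heterochromatin and the nuclear lamina 7 were lower and 0 higher, and 12, 2 and 2 were lower without pairs 1, 2 and 3. LMNB1, lamin B1, whose loss marks senescence, stood at 6.96, 8.79 and 7.79 CPM against 9.61, 15.9 and 21.4 CPM, without overlap, and at 103.5 to 113.5 CPM in untreated cells (log2 -0.94 ± 0.15, paired edgeR fit, adjusted p = 0.00842). HELLS, a chromatin remodeller, UHRF1, which reads methylated DNA, and EZH2, the H3K27 methyltransferase, were lower by log2 -0.67, -0.67 and -0.56.

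Targets of p53 were lower with palbociclib, evenly across the pairs. Of 55 targets 21 were lower and 0 higher, by log2 -0.25 (FAS) to -0.67 (ACER2). The list medians were -0.29, -0.25 and -0.22 in the 3 pairs and -0.25 in the paired fit, and the groups did not overlap in 11 genes in the lower and 1 in the higher direction. Against untreated cells 27 targets were higher and 5 lower with palbociclib (median 0.60), and 34 were higher and 3 lower with doxorubicin (median 0.75).

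MDM2, the ubiquitin ligase that degrades p53 and is itself a p53 target, stood at 199.9, 224.2 and 226.2 CPM with palbociclib, 325.2, 327.7 and 310 CPM with doxorubicin and 108.5, 91.3 and 99.7 CPM in untreated cells. The 3 groups did not overlap, with palbociclib between the others (palbociclib against doxorubicin log2 -0.57 ± 0.07, paired edgeR fit, adjusted p = 0.00267). CDKN1A, the CDK inhibitor p21, stood at 280.3, 555 and 450.5 CPM against 421.3, 701.1 and 565.1 CPM, with 111, 88.2 and 105.9 CPM in untreated cells. The drug groups overlapped, and palbociclib was lower in each pair (log2 -0.42 ± 0.08, paired edgeR fit, adjusted p = 0.0132). DDB2, a sensor of UV damage, gave 33, 47.3 and 39.3 CPM against 48.4, 67.4 and 61.1 CPM, and 62.7, 56.6 and 59.3 CPM in untreated cells. All palbociclib values lay below all others (palbociclib against doxorubicin log2 -0.56 ± 0.06, paired edgeR fit, adjusted p = 0.00116). RRM2B, the p53-induced ribonucleotide reductase subunit, at log2 -0.33, the phosphatase PPM1D at -0.58 and the translesion polymerase POLH at -0.54 were further called members. GDF15, a secreted stress hormone and p53 target, was not called, at 203.8, 64.6 and 79.1 CPM against 221, 91.6 and 80.8 CPM (paired edgeR fit, adjusted p = 0.17). Without pairs 1, 2 and 3, 24, 8 and 15 targets were lower, and 2 were higher without pair 1. A pair of p53 half-sites was found in 1 of 43 target promoters (2.33%) and in 10 of 35116 in all, and in 0 of the 18 called.

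**Figure D4:**
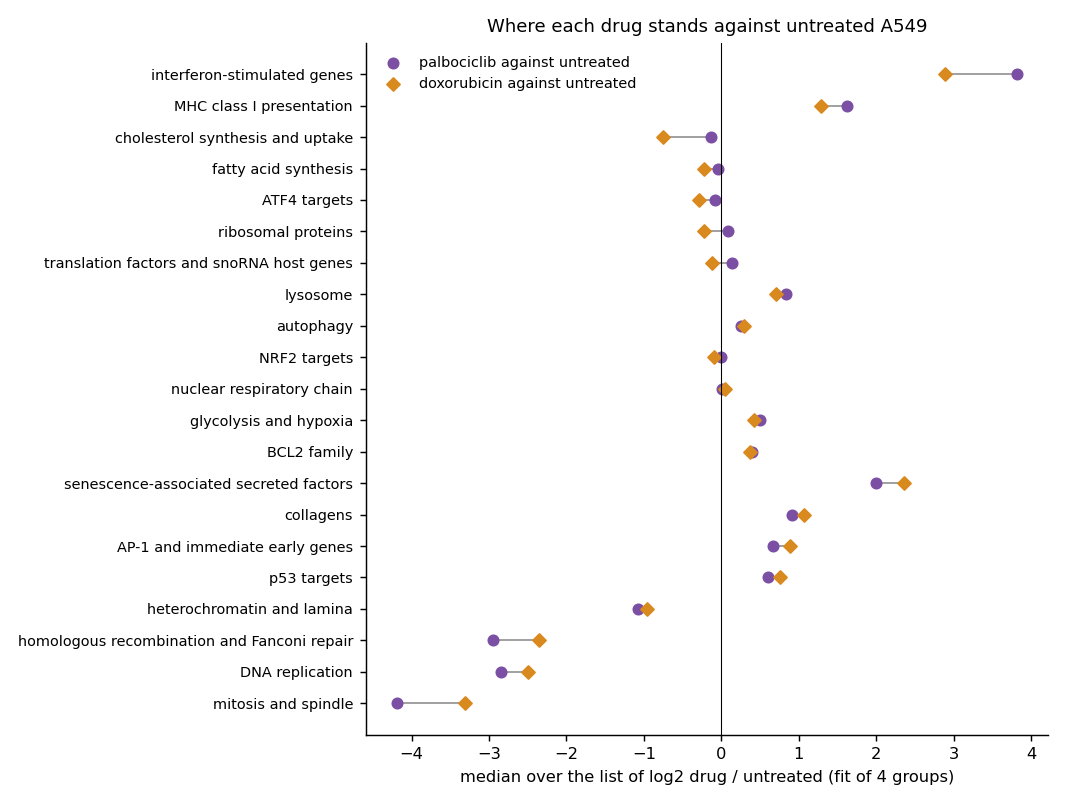
For the same 21 lists, the median log2 ratio of palbociclib (circles) and of doxorubicin (diamonds) to untreated A549, from the fit of 4 groups. The drugs lie close together in most lists; cholesterol genes stand at -0.13 and -0.75, interferon genes at 3.82 and 2.88, and mitosis genes at -4.19 and -3.31.

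Of 49 secreted factors of senescent cells tested over the 4 groups, 30 were higher than in untreated cells with palbociclib and 32 with doxorubicin. Between the drugs, 2 of the 46 tested in pairs were higher with palbociclib and 5 lower (median -0.10). The balance depended on the pairs, with 4 higher and 15 lower without pair 1, 1 and 2 without pair 2, and 8 and 2 without pair 3. IL11, a cytokine of the IL6 family, stood at 65.8, 13.5 and 10.4 CPM against 77.2, 34.8 and 36.9 CPM (log2 -1.09 ± 0.23, paired edgeR fit, adjusted p = 0.0244). The groups overlapped, since palbociclib replicate 1 was above doxorubicin replicates 2 and 3. PLAT, CXCL1 and CXCL2 were further lower members. The higher ones were IGFBP1, at 843.7, 107 and 160.3 CPM against 399.3, 60.3 and 98.1 CPM (log2 0.87 ± 0.08, paired edgeR fit, adjusted p = 0.000881), and IGFBP5 (log2 0.83 ± 0.12), both binding proteins of insulin-like growth factors. The neutrophil chemokine CXCL8 was not called, at 1186, 207.8 and 296.8 CPM against 1210, 295.6 and 469.8 CPM, nor was IL6, at 20.5, 2.3 and 3.01 CPM against 14.8, 3.73 and 6.26 CPM (paired edgeR fit, adjusted p = 0.0601 and 0.49). Replicate 1 was the highest in each of the last 2 genes with either drug. Of 21 NF-kB subunits and feedback genes, TNFAIP3 and NFKBIZ were lower and 0 higher.

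Matrix and early response genes were lower in small numbers. Of 21 collagens 6 were lower and 0 higher (median -0.18), namely COL7A1, COL5A1, COL4A6, COL4A2, COL4A1 and COL6A2. COL7A1, the anchoring fibril collagen, stood at 170.3, 96.8 and 109.3 CPM against 278.3, 143.1 and 169.8 CPM (log2 -0.64 ± 0.06, paired edgeR fit, adjusted p = 0.000927). Among AP-1 and immediate early genes 5 of 23 were lower, including JUN at 78.1, 71.3 and 86.8 CPM against 99.9, 94.6 and 110 CPM, without overlap (log2 -0.37 ± 0.05, paired edgeR fit, adjusted p = 0.0059), and 1, KLF2, was higher. Without pairs 1, 2 and 3 the lower counts were 10, 2 and 3. Complement and acute phase genes were split, with 7 of 27 higher, such as the iron carrier TF (log2 1.39 ± 0.24), and 4 lower, such as complement factor CFB (-0.92 ± 0.14). Without pairs 1, 2 and 3 the counts were 11, 2 and 9 higher and 5, 2 and 3 lower. C4A and C4B, both called higher, are near-identical copies, so the reads of either may belong to the other. In the NRF2 list 5 of 35 were higher, OSGIN1, FTL, FTH1, SLC7A11 and UGT1A6, and 8, 1 and 1 without pairs 1, 2 and 3. Of 25 canonical histone genes tested 4 were higher; their mRNAs normally lack the poly(A) tail by which these libraries were selected.

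The ranking took called protein-coding genes that were lower in every pair and had a mean of at least 10 CPM in the higher group. The 12 most lowered were PTPRN2, IL11, ANK1, IQGAP3, MYOCD, FLRT2, NPTX1, HAS3, TMEM59L, THSD1, LMNB1 and CFB, from log2 -1.10 to -0.92. MKI67, called at log2 -1.03 with a doxorubicin mean of 34 CPM, was left out because it was not lower in pair 1 (log2 0.04). Of the 12 genes, 9 lie outside the lists, and all of the 12 but IL11, NPTX1 and THSD1 reached a mean of 10 CPM in the doxorubicin group alone. PTPRN2, a receptor-type phosphatase of secretory granules, stood at 5.42, 3.89 and 5.27 CPM against 12.5, 7.67 and 11.5 CPM (log2 -1.10 ± 0.10, paired edgeR fit, adjusted p = 0.000881). HAS3, a hyaluronan synthase, stood at 7.37, 7.48 and 8.44 CPM against 14.6, 15.3 and 16.6 CPM (log2 -1.0 ± 0.08, paired edgeR fit, adjusted p = 0.000833). In these genes and in TMEM59L, THSD1, IQGAP3 and LMNB1 the groups did not overlap.

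Several lists gave no call between the drugs. Of 18 BCL2 family genes, which decide on apoptosis, 0 were called in the paired edgeR fit, with 7 at an unadjusted p under 0.05 and 0 called by DESeq2. Of 52 nuclear respiratory chain genes 0 were called, with 3 at an unadjusted p under 0.05 and 0 by DESeq2, and of 24 ABC transporters 0 were called, with 4 and 1. Glycolysis and hypoxia genes were divided, with 3 of 36 higher and 3 lower, as were FOXO targets, with 3 of 26 in each direction. Among those, ERBB3, a receptor tyrosine kinase, stood at 16.8, 19.6 and 21.3 CPM against 9.26, 8.01 and 12.2 CPM. Among epithelial markers 3 of 21 were higher, such as the calcium-binding protein S100P (log2 0.89), and 3 lower, such as the tight junction protein CLDN4 (-0.82). TGF-beta targets had 3 of 30 lower and 0 higher (6, 0 and 0 lower without pairs 1, 2 and 3), MAPK feedback genes 1 of 19 higher, and integrins and laminins 1 of 26 in each direction. Over all genes tested in pairs 3.84% were called higher and 3.44% lower, so single calls in such short lists lie near the overall share. The share of counts from the mitochondrial genome was 12% ± 4.62 with palbociclib and 12% ± 5.44 with doxorubicin (SD, n = 3). The difference was -0.0243 percentage points (exact permutation test, 2-sided, p = 1, where the smallest p that 3 against 3 allow is 0.1).

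Whether these differences belonged to A549 was tested against the same pair of drugs in SK-MEL-147. The palbociclib doses differ between the lines, so the test compares each line at its own dose. Without a block, 0 of 21761 genes differed between the lines at an adjusted p under 0.05 (edgeR, 1332 at an unadjusted p under 0.05), and DESeq2 called 137. With the replicate number as a block and only the 2 drugs, chosen after the data were seen, 263 of 20350 genes (1.29%) had a higher palbociclib to doxorubicin ratio in A549 and 423 (2.08%) a lower one. Many proliferation genes differed between the lines: 26 of 42 mitosis genes and 21 of 39 replication genes had the lower ratio in A549, and 0 the higher. Of the 42 mitosis genes 31 were higher with palbociclib in SK-MEL-147 and 0 lower (median 1.74), and 9 were lower in A549 and 0 higher (median -0.70). MKI67 differed by log2 -1.03 in A549 and 3.96 in SK-MEL-147 (difference -4.97 ± 0.66 SE, paired edgeR fit, adjusted p = 0.00785).

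p53 targets were lower with palbociclib in both lines. In SK-MEL-147, 30 of 55 were lower and 2 higher (median -0.35), and between the lines 2 genes had the higher ratio in A549 and 2 the lower. MDM2 differed by log2 -0.57 in A549 and -0.50 in SK-MEL-147 (paired edgeR fit, adjusted p of the difference 0.867). The interferon list had a median of 0.70 in A549 and -0.03 in SK-MEL-147, and 6 of its genes, among them IFIT1, IFIT3, MX1 and IFI6, had the higher ratio in A549. Cholesterol genes had medians of 0.42 and 0.13, with 3 members higher in A549, HMGCS1 and STARD4 among them. Of the ribosomal protein genes 4 of 78 had the higher ratio in A549 and 0 the lower. Their median was 0.31 in A549 and 0.06 in SK-MEL-147, where 2 were higher with palbociclib and 0 lower. Of ATF4 targets 7 of 39 had the higher ratio in A549 and 1 the lower (medians 0.25 and 0.02). In the added list of translation factors and host genes 7 of 30 had the higher ratio and 0 the lower (medians 0.24 and 0.03). Without A549 replicates 1, 2 and 3 in turn, 409, 118 and 97 genes differed between the lines.

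**Figure D5:**
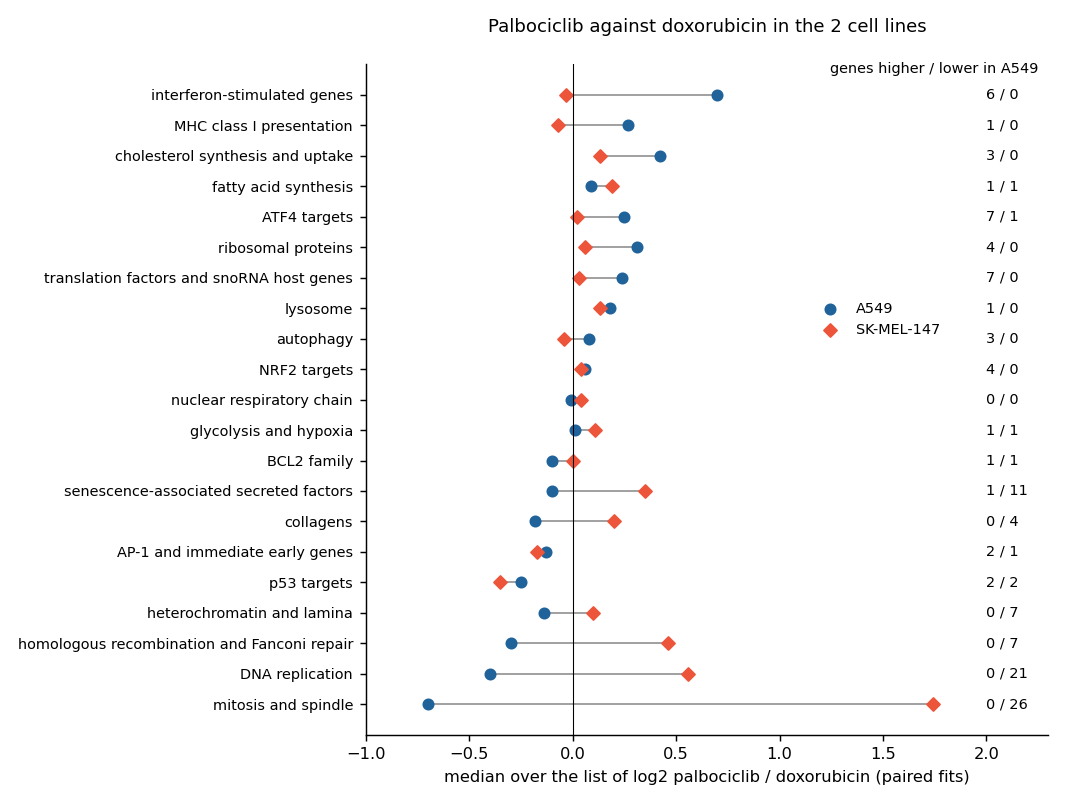
For the same 21 lists, the median log2 ratio of palbociclib to doxorubicin in A549 (circles) and in SK-MEL-147 (diamonds), from paired fits, with the number of genes whose ratio was higher and lower in A549 on the right. The lines lie apart for mitosis genes (-0.70 and 1.74), replication genes (-0.40 and 0.56) and interferon genes (0.70 and -0.03) and close together for p53 targets (-0.25 and -0.35).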

How the data were processed

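The deposited table holds counts of reads per gene for 60728 Ensembl genes in 32 libraries, made by the authors with STAR 2.7.10a on GRCh38.p13 and featureCounts, per the submitters' processing notes. Per the labels' protocols, a stranded kit for polyadenylated RNA was used; the annotation release and the handling of strand and of reads with several matches are not given in the sources used here. The comparison, lists, rules and tests were chosen with earlier results of these data known. The tests came from edgeR 4.0.16 under R 4.3.3 (TMM, filterByExpr, quasi-likelihood F tests, 2-sided, Benjamini-Hochberg adjustment over all genes tested), first over all 4 A549 groups without a block. Standard errors are the log2 difference divided by the root of F. CPM of named genes use TMM-scaled totals; CPM of SOX10, of genes typical of SK-MEL-147 and of list sums in SK-MEL-147 use plain totals.

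Same-numbered A549 libraries correlated at 0.586 to 0.815 and SK-MEL-147 libraries at 0.468 to 0.596, each above the 0.1 set as the threshold for pairing. Some libraries with different numbers also passed it, at 0.37 and 0.446 in A549 and at 0.25 to 0.347 in SK-MEL-147. The threshold therefore does not single out equal numbers. The paired fits were added after the data were seen. Genes named are the 12 largest called protein-coding differences per direction (mean of at least 10 CPM in the higher group, same direction in 3 pairs, which after the data were seen replaced groups that do not overlap), up to 3 called genes per list and direction, and a panel of 16 genes; other list members named were chosen after their values were seen, as were the genes typical of SK-MEL-147 and the list of translation factors and host genes. Symbols came from a gene name table and GENCODE 29 for 42302 genes. Promoters came from RefSeq. The fits were run on counts simulated from their own fitted values. Such counts take the pairing and independent replicates as given, so they test neither. DESeq2 1.42.0, other scalings and filters, library choices and left-out replicates were alternatives. Exact permutation tests used scipy 1.17.1. A few genes are not reported here.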

Additional observations from a re-analysis of the deposited data

Results flagged for a closer look

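Of the 136 named genes, 47 had a palbociclib to doxorubicin difference that itself differed between A549 and SK-MEL-147 in the paired edgeR fit (interaction, adjusted p under 0.05), 23 with a higher and 24 with a lower ratio in A549. Over all 20350 genes tested, 1.29% had a higher and 2.08% a lower ratio in A549. Most named genes were chosen for a called difference in A549, which is part of what the interaction tests, so their share may be raised by that choice. Each value in parentheses is the log2 difference in A549 minus that in SK-MEL-147, each line at its own palbociclib dose. Without the replicate block 0 genes differed between the lines in edgeR, with 1332 of 21761 at an unadjusted p under 0.05, and 137 in DESeq2.

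The lower values were led by genes of the cell cycle, DNA replication and chromatin: MKI67 (-4.97), KIF4A (-3.96), TOP2A (-3.27), CKAP2L (-2.95), MYBL2 (-2.92), CCNE2 (-2.75), CLSPN (-2.74), LMNB1 (-1.94), GINS2 (-1.93), HELLS (-1.42) and UHRF1 (-1.31). In SK-MEL-147 the summed mitosis genes stood at 201 to 856 CPM with palbociclib and at 169 to 183 CPM with doxorubicin. Among secreted, matrix and signalling genes the values were HAS3 (-1.76), IL11 (-1.54), GDF15 (-1.34), CXCL8 (-1.27), TNFAIP3 (-1.19), PLAT (-0.74), COL5A1 (-0.64) and JUN (-0.42). Other lower genes were THSD1 (-1.21), TMEM59L (-1.05) and SCD5 (-0.55).

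The higher values included 6 interferon-stimulated genes, IFIT1 (2.10), IFIT3 (1.99), MX1 (1.98), IFIT2 (1.81), IFI6 (1.74) and IFI44 (1.55). Genes of lipid, amino acid and iron metabolism were SCD (1.09), STARD4 (0.96), HMGCS1 (0.67), SLC7A11 (1.01) and FTL (0.67). STC2 (1.19) of the ATF4 list and OSGIN1 (1.03) of the NRF2 list were also among the higher values. The host genes of small nucleolar RNAs were SNHG6 (0.69), GAS5 (0.68) and SNHG7 (0.47). The others were IGFBP1 (1.35), H2BC21 (1.27), ERBB3 (1.03), RRAGD (0.83), TSC22D3 (0.71), WIPI1 (0.57) and CD55 (0.50). Replicate 1 of A549 carried SK-MEL-147 transcripts, and without it 409 genes of all tested differed between the lines in place of 686; the part of this in single genes was not tested.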

How the results depend on the processing

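Palbociclib against doxorubicin over 4 groups gave 0 genes in each direction in edgeR. DESeq2 gave 12 higher and 19 lower, every gene with a count 1 lower, library 2-2 alone 3 higher, and the fit without replicate 1 of every group 14 and 48; leaving out single replicates gave 0 to 63 lower, the 63 without doxorubicin replicate 1. The replicate block with the 2 groups alone gave 706 and 633. That paired fit gave 1312 and 1154 with every gene with a count, 399 and 323 with library 2 alone, 451 and 362 with 2-2 summed with 3, and 418 lower with DESeq2. It gave 0 and 0 without the block and 0 and 0 with the block over 4 groups. Leaving out a pair gave 215 to 1132 higher and 141 to 971 lower, the fewest without pair 2. The cause was not tested.

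Genes that differed between the lines numbered 0 without a block, 115 with every gene with a count, 9 with the replicate block over 8 groups, 80 with 2 and 2-2 apart, 9 without replicate 1 of every A549 group, 137 with DESeq2 and 686 in the paired fit. The paired count was 1167 with 2 and 2-2 apart and 97 to 409 with an A549 replicate left out. The mitochondrial share difference changed sign to 0.147 points with 2 and 2-2 apart and 0.0518 with library 2 alone, and ranged from -2.68 to 3.11 with a replicate left out. CDK6 ranged from -0.23 to 0.00 with a pair left out and IL6 was 0.07 without the block; neither was called. Of 127 named genes called in the paired fit, 17 lost the call with DESeq2, 9, 53 and 32 without pairs 1, 2 and 3, and 127 without the block or with the block over 4 groups. Since libraries 2-2 and 3 lie close together, the number of independent replicates may be under 3.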

Other observations

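The SK-MEL-147 transcripts were also present in the A549 library 1 of INK128, where SOX10 stood at 17.1 CPM and the 76 genes summed to 2.68% of the SK-MEL-147 mean. In untreated A549 libraries 2, 2-2 and 3, which chose the genes, the sum was 0.0152% to 0.0214%. In INK128 libraries 2, 2-2 and 3, which did not, it was 0.033% to 0.0372%, and in the 6 other libraries of the 2 senescence drugs 0.0996% to 0.146%. A few genes made up much of these last sums. In palbociclib library 2, INHBA (3.48 CPM), DTNA (1.47) and MX2 (0.75) were the largest parts of 11.4 CPM, with SOX10 and CDKN2A at 0. MX2 is also one of the called interferon-stimulated genes. What part of these sums came from SK-MEL-147 was not tested.

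CRP and SERPINA3, both acute phase proteins, moved in opposite directions in the paired edgeR fit, with CRP higher with palbociclib (log2 1.79 ± 0.34, adjusted p = 0.0159) and SERPINA3 lower (log2 -1.45 ± 0.33, adjusted p = 0.0322). The kinase PFKFB4, a regulator of glycolysis, was lower (log2 -0.66 ± 0.08, adjusted p = 0.00307), and the glycolytic enzyme ALDOC was higher (log2 0.83 ± 0.17, adjusted p = 0.0209).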
